A study of Homo sapiens with 2 samples.

Results

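HMGA2 encodes an architectural chromatin protein that binds AT-rich DNA through short AT-hook motifs. It is active in the embryo, largely silent in most adult tissues, and expressed again in many tumours. The gene is known for a very long intron in which chromosome breaks occur in lipomas and other benign tumours, and for a 3′ untranslated region (3′ UTR) that is repressed by the let-7 microRNAs. ADAR1, the protein mapped here, edits double-stranded RNA by deaminating adenosine to inosine. Inverted copies of the Alu retrotransposon within 1 transcript are its best known source of such RNA.

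The clusters on HMGA2 were taken from a list of places where ADAR1 was crosslinked to RNA (CLIP-seq) in the human glioblastoma cell line U87MG. The series has 1 library labelled AB1 and 1 labelled AB2, both from U87MG cells irradiated with ultraviolet light with no other treatment named, and no control library is among the samples analysed here. The labels give the same antibody catalogue entry for both, although the study speaks of different ADAR1 antibodies. The series has 1 list, which does not separate the libraries and gives no read number. No value below therefore has a replicate, and the depth behind a cluster is unknown. A cluster was counted for HMGA2 when it lay on the plus strand of chromosome 12 with its midpoint between 66217900 and 66360100 (hg19), an interval of 142.2 kb. This gave 19 of the 23782 clusters in the list. The clusters were selected on their deposited strand and position, and the gene was chosen for how many it holds and their classes, so number, class and position are described without a test.

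ADAR1 clusters on HMGA2 were mostly outside Alu repeats. The list labels 16 of the 19 clusters non-Alu and 3 Alu. The non-Alu share was 84.2% on HMGA2 (exact Clopper-Pearson 95% confidence interval 60.4 to 96.6%, counting error only), against 15.1% of all clusters. The confidence interval counts each cluster as independent, although some lie close together on the same transcript, so it may be too narrow. The gene was chosen partly for the classes of its clusters, so the confidence interval is not a test of this share against the list. On chromosome 12 as a whole, 182 of 1200 clusters, 15.2%, were non-Alu. HMGA2 alone held 16 of the 107 non-Alu clusters on the plus strand of that chromosome. The class mix on HMGA2 was thus close to the reverse of that in the list, and it was known when the gene was chosen.

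The clusters were all on the strand of the HMGA2 transcript. No cluster lay on the minus strand of the interval, although GENCODE release 29 (GRCh38) annotates minus-strand transcripts across the gene. RPSAP52 lies over its start, and the antisense genes AC090673.1 and AC090673.2 lie within its long intron. The interval also stood apart from its surroundings. The nearest plus-strand cluster before it was an Alu cluster 541.9 kb away, at 65675827 to 65675992, and the nearest after it was an Alu cluster 242.3 kb away, at 66602409 to 66602613. On the minus strand the nearest clusters were 1068.2 kb before and 191.7 kb after the interval. An equal length on each side of HMGA2 therefore held 0 clusters of either strand. Across the genome, 1158 of 11111 fixed windows of this length with a cluster, 10.4%, had none of either strand in both adjacent windows. The most non-Alu clusters in any such window was 15. This measure is unlike that for HMGA2, whose interval is placed around the gene. Fixed edges split the HMGA2 clusters into 12 and 7 in adjacent windows, so they would not meet this condition.

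The layout of the gene comes from GENCODE 29, which is on GRCh38, while the list is on hg19. The 2 were not converted into each other: the GRCh38 position of HMGA2, 65824131 to 65966295 on chromosome 12, held 0 clusters of either strand in the list. The gene is 142165 bases long in GRCh38, nearly the length of the hg19 interval, so distances from the start of each are set side by side and no cluster is assigned to an exon or intron. In the longest transcript, HMGA2-204, exons 1 to 3 lie within the first 14.4 kb. Intron 3 then runs from 14.4 to 127.3 kb and makes up 79.4% of the gene. Exon 4 lies at 127.3 kb, and exon 5, with the 3′ UTR, from 139.1 to 142.2 kb.

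**Figure D1:**
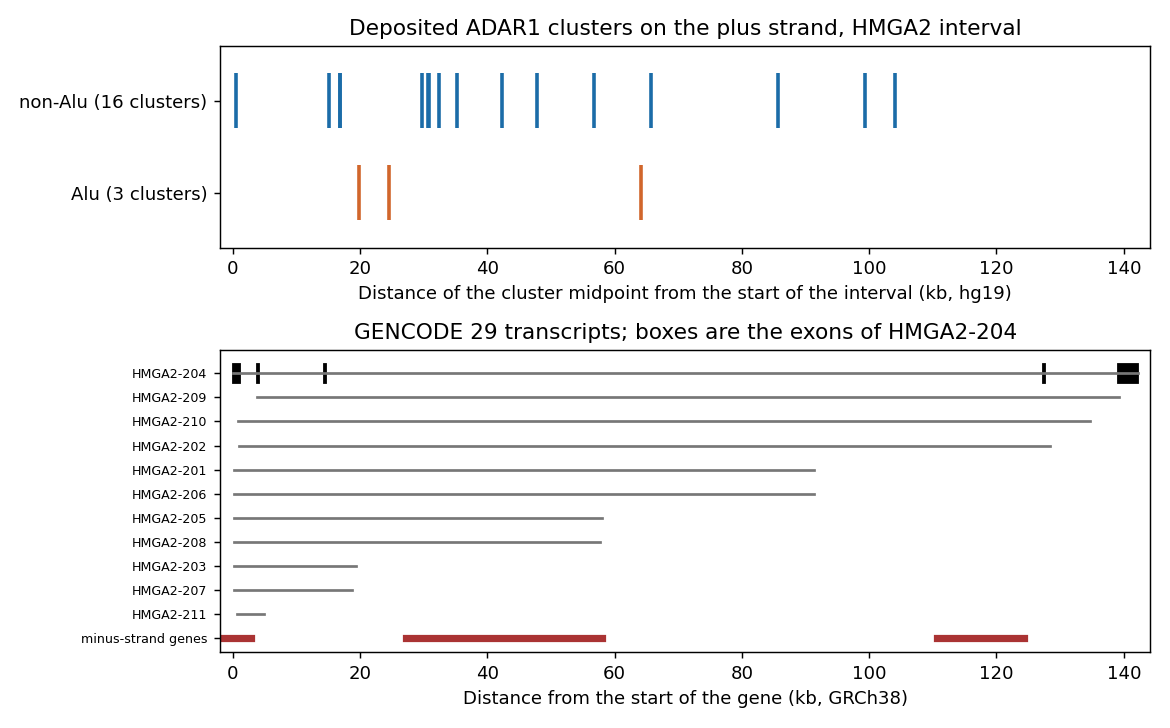
Upper panel: midpoints of the 16 non-Alu (blue) and 3 Alu (orange) clusters, in kb from the start of the hg19 interval. Lower panel: the 11 GENCODE 29 transcripts of HMGA2 as lines, the exons of HMGA2-204 as boxes (widened to be visible) and the overlapping minus-strand genes in red, in kb from the gene start in GRCh38. Clusters run from 0.5 to 104.0 kb, and none is seen over the last 38.0 kb.

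Read against this layout by distance alone, 1 cluster lay near the start of the gene, 18 lay at distances of the long intron, and 0 lay at distances of exons 4 and 5. The cluster near the start was non-Alu, 180 bases long, at 66218307 to 66218486. Its midpoint was 0.5 kb from the start of the interval, while exon 1 spans 0.0 to 1.2 kb in the GRCh38 model. The next 14.4 kb, a distance that takes in exons 2 and 3, held no cluster. The second cluster followed at 66232858 to 66233050, 15.1 kb from the start and 0.7 kb past the distance at which intron 3 begins.

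Clusters thinned out along the gene. When the interval was divided into 3 equal parts, the part up to 47.4 kb held 12 clusters, of which 10 were non-Alu and 2 Alu. The part from 47.4 to 94.8 kb held 5, of which 4 were non-Alu and 1 Alu. The part from 94.8 to 142.2 kb held 2, both non-Alu. A stretch of 50.8 kb from 66232858 to 66283668 contained 15 of the 19 clusters, 12 of them non-Alu.

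Within this stretch the non-Alu clusters formed a pair, a group and a looser series. The pair lay at 66234651 to 66234785 (135 bases) and 66234788 to 66234873 (86 bases), separated by 2 bases. This is the smallest same-strand gap anywhere in the list, shared by 5 of 23734 consecutive pairs. The group of 3 lay within 1380 bases, at 29.7 to 30.9 kb from the start of the interval. Its members ran from 66247563 to 66247636 (74 bases), from 66248476 to 66248630 (155 bases) and from 66248695 to 66248942 (248 bases). They hold both the shortest and the longest cluster on HMGA2. Further non-Alu clusters followed at 66250186 to 66250329 (144 bases) and 66253014 to 66253219 (206 bases), so that 5 non-Alu clusters lay within 5.7 kb.

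Beyond this point the non-Alu clusters were single and spaced by several kilobases. They lay at 66260109 to 66260295 (187 bases), 66265721 to 66265839 (119 bases), 66274633 to 66274839 (207 bases) and 66283453 to 66283668 (216 bases). After the last of these came the widest gap between 2 clusters of the gene, 19882 bases. The remaining 3 clusters, all non-Alu, lay at 66303551 to 66303673 (123 bases), 66317218 to 66317450 (233 bases) and 66321831 to 66322069 (239 bases). By distance they stand at 85.7, 99.4 and 104.0 kb, still within the long intron of the GRCh38 model. GENCODE gives 6 of the 11 HMGA2 transcripts an end inside that intron, at 18.8, 19.4, 57.8, 58.0, 91.3 and 91.4 kb from the gene start. The clusters at 99.4 and 104.0 kb lie past all 6 of these ends by distance, and the others do not.

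The 3 Alu clusters lay among the non-Alu ones. They were at 66237590 to 66237717 (128 bases), 66242481 to 66242565 (85 bases) and 66282035 to 66282215 (181 bases). By distance they stood at 19.8, 24.6 and 64.2 kb, so none lay in the last of the 3 equal parts. The first and second were consecutive, 4763 bases apart, while the third stood 1237 bases before a non-Alu cluster. From the first, the nearest non-Alu cluster of the gene was 2716 bases away, and from the second 4997 bases. The strand in the list is that of the RNA, so it does not say in which orientation these Alu copies lie or whether a partner copy is near.

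At the 3′ end, the last cluster ended at 66322069, and the remaining 38.0 kb, 26.7% of the interval, held none. By distance this part takes in the last 23.3 kb of intron 3, exons 4 and 5 and the 3′ UTR of HMGA2-204. The absence is of listed clusters: without read numbers or a threshold it cannot be said how much binding there would have gone unlisted. Full matches to the let-7 seed in the 3′ UTR are shown because let-7 sites are the best known regulatory sequences of this end of the gene. Other kinds of let-7 site were not searched for. The mature let-7a sequence (RefSeq, GRCh38.p14) has its seed, bases 2 to 8, in capitals, and the sites are 23-base stretches of the HMGA2-204 3′ UTR from GENCODE 29 with the match to the seed in capitals, all written 5′ to 3′.
hsa-let-7a-5p: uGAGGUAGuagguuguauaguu
HMGA2 site 1: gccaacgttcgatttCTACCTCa
HMGA2 site 2: ccccactactcaataCTACCTCt
HMGA2 site 3: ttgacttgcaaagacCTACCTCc
HMGA2 site 4: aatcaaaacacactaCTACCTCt
The seed is shared by all 9 let-7 and miR-98 mature 5p names in the table. Its match, CTACCTC, occurs 4 times in the 3003 bases of this 3′ UTR, starting at bases 21, 1256, 1668 and 2521 after the stop codon. It occurs 1 time in the rest of the transcript. The reverse complement, GAGGTAG, occurs 2 times in the same 3′ UTR sequence. Of 3465 other genes with a 3′ UTR at least as long, 16.9% had a match in the first 3003 bases, and none had more than 3. A match is a string of letters and not a measured site, and no cluster was listed at this distance from the start of the interval.

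The clusters on HMGA2 were close in median length to those of the whole list, though 12 of the 19 were shorter than the median of their class. Lengths ran from 74 to 248 bases, with a median of 180 bases on HMGA2 (order-statistic 95% confidence interval 123 to 207) and 192 bases over all clusters. For the non-Alu clusters alone the median was 183.5 bases on HMGA2 and 191 bases over the list. Of the 16 non-Alu clusters, 9 were shorter and 7 longer than that list median. All 3 Alu clusters were shorter than the Alu median of 193 bases. On HMGA2, 3 of 19 clusters were under 100 bases, against 6.00% of all clusters, and 6 of 19 were 200 bases or longer, against 43.8%. All clusters together covered 3139 bases, 2.21% of the interval.

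**Figure D2:**
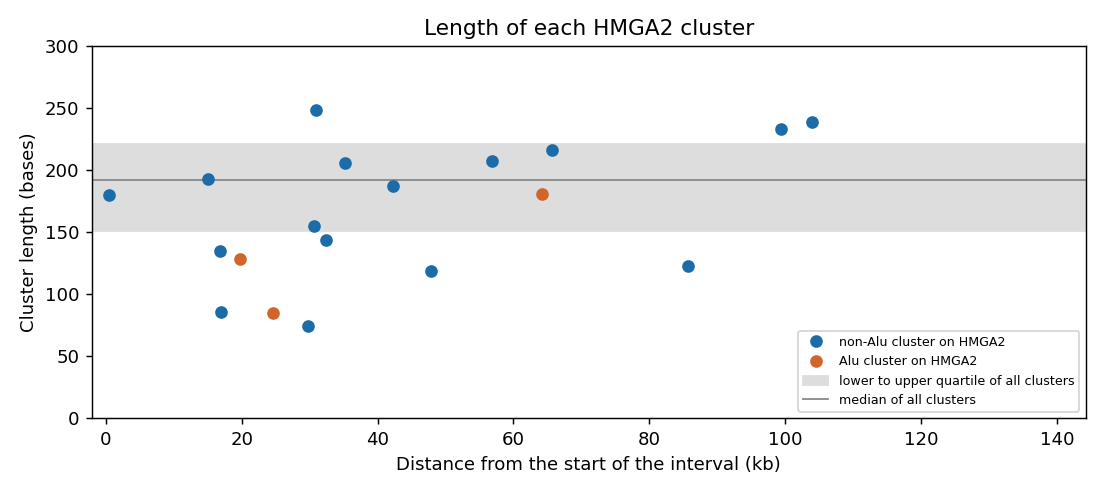
Length in bases of each HMGA2 cluster against its distance in kb from the start of the interval, with the median (line) and the quartile range (band) of all 23782 clusters. The 3 clusters under 100 bases lie between 16.9 and 29.7 kb, and the clusters at 99.4 and 104.0 kb are 233 and 239 bases long.

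Spacing along the gene was uneven. The 18 gaps between consecutive clusters ran from 2 to 19882 bases, with a median of 4.57 kb. Of these, 3 were at most 1000 bases and 3 exceeded 10000 bases. A same-strand neighbour within 1000 bases was found for 5 of the 19 clusters, 26.3% (exact 95% confidence interval 9.15 to 51.2%), against 6.70% of all clusters. All 5 were non-Alu, namely the pair and the group of 3, so they come from 2 places and not from 5. The confidence interval counts each cluster as independent and is therefore too narrow here. Among non-Alu clusters alone the share was 5 of 16 on HMGA2, 31.2%, against 17.1% in the list. When same-strand clusters within 50 bases were merged, which joins the pair, 3 of 18 clusters on HMGA2 had a neighbour, 16.7%, against 5.93% of all merged clusters. Within the non-Alu class the comparison was closer: 3 of 15 merged clusters on HMGA2, against 15.4% of merged non-Alu clusters in the list. A gene chosen for holding many clusters tends to have closer ones than the list, so these contrasts follow in part from that choice. No test was made of these shares.

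**Figure D3:**
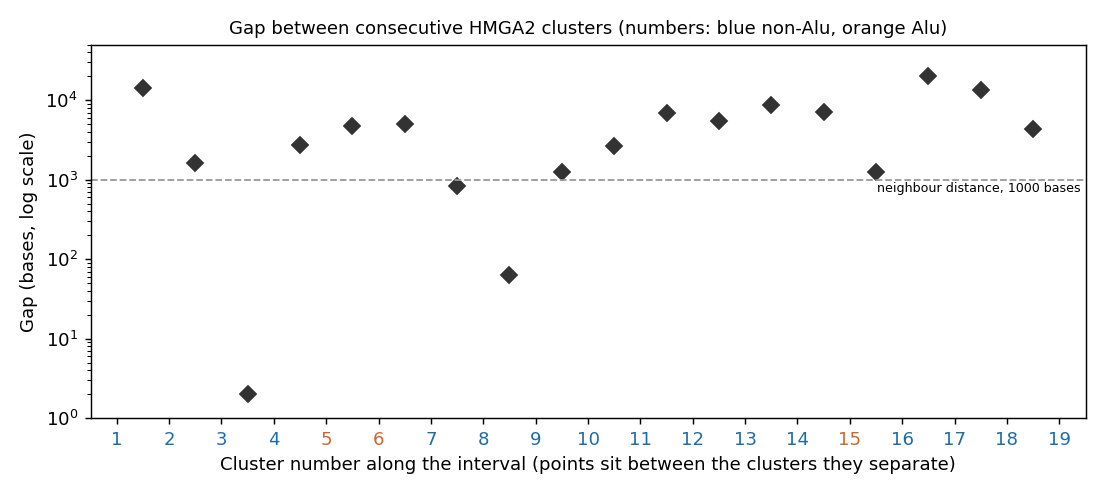
Gap in bases (log scale) between each pair of consecutive clusters, numbered 1 to 19 from the start of the interval, with non-Alu numbers in blue and Alu numbers in orange. Only 3 gaps, between clusters 3 and 4, 7 and 8, and 8 and 9, fall under the dashed line at 1000 bases.

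Set beside other places of the genome, HMGA2 had many non-Alu clusters. When each strand was divided into windows of the length of the interval, 11111 windows away from HMGA2 held a cluster, with a median of 2 clusters. Only 2 of them had 19 or more clusters, and 3 had 16 or more non-Alu clusters. The interval is placed around the gene, which favours it over windows with fixed edges: a fixed edge at 66265666 splits its clusters into 10 non-Alu and 2 Alu on one side, and 6 non-Alu and 1 Alu on the other. The first of these parts was matched or exceeded in non-Alu clusters by 12 windows elsewhere. The gene was chosen for how many clusters it holds and their classes, so a high rank follows from that choice and is a description.

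The windows with the most non-Alu clusters differed among themselves in spacing. In the fixed window with 10 non-Alu clusters of HMGA2 the median gap was 2684 bases, and over the whole interval it was 4.57 kb. The window with 29 non-Alu clusters, on the minus strand of chromosome 11, had a median gap of 120 bases between its clusters. The windows with 18 and 16 non-Alu clusters, both on the minus strand of chromosome 2, had median gaps of 1999 and 2196 bases. A window with 15 on the minus strand of chromosome 8 had 1272 bases. On the minus strand of chromosome 9, 15 non-Alu clusters from 117783182 to 117880510 had a median gap of 4648 bases. The HMGA2 clusters covered 4.34% of their stretch in the fixed window and 3.02% between the first and last cluster of the gene, against 3.41% in the chromosome 9 window. Over the 12 windows with 10 or more non-Alu clusters, the median gap ranged from 120 to 9428 bases. It was wider than in the fixed HMGA2 window in 4 of them, and wider than over the whole HMGA2 interval in 3. HMGA2 had 3 Alu clusters over its whole interval and 2 in the fixed window, and each of these 12 windows had at most 2.

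**Figure D4:**
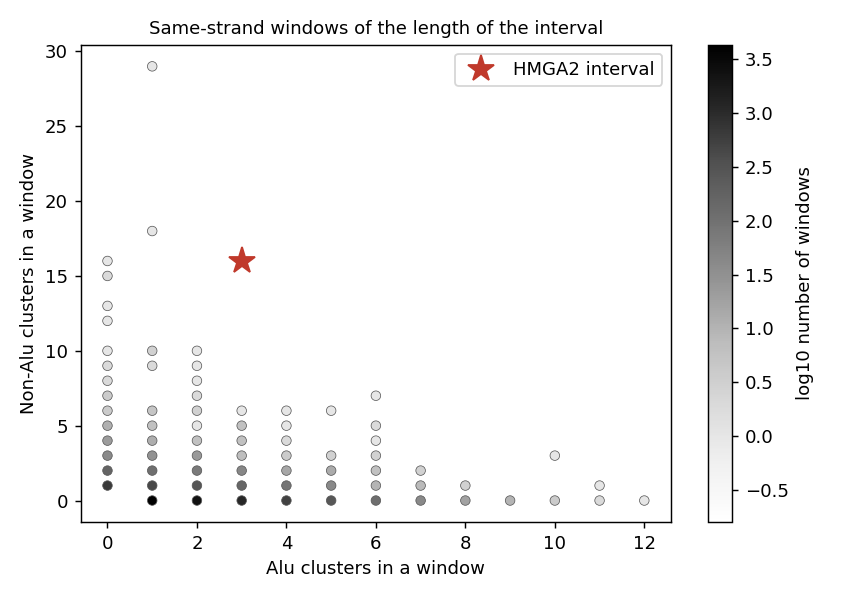
Number of non-Alu against Alu clusters in each of the 11111 same-strand windows of the interval's length that hold a cluster (grey, darker where more windows coincide, log10 scale), with the HMGA2 interval as a red star at 16 non-Alu and 3 Alu clusters. Most windows lie along the lower edge with few non-Alu clusters, and 3 lie at or above HMGA2.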

How the data were processed

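Per the labels' protocols, U87MG cells were irradiated at 254 nm on ice, ADAR1-bound RNA was recovered with a mouse monoclonal antibody, linkers were added, and the product was amplified for 23 cycles and size-selected at 75 to 250 bp. Per the submitters' processing notes, cutadapt 1.1, Novoalign 2.08.22 and hg19 were used. What the authors deposited is a single list, with a position, a class (Alu or non-Alu) and a strand for each cluster. Not given in the sources used here are the cluster caller, its threshold, whether and how the libraries were joined, the handling of reads with several matches and the Alu rule. Each can change which clusters are listed, where they end and how many there are. Starts were taken as BED starts, counted from 0, and are printed counting from 1; if that reading is wrong, every start shifts by 1 base.

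Clusters were selected by midpoint, counted and measured in Python 3.11.15 (pandas 2.3.3, numpy 2.4.6, scipy 1.17.1). A neighbour was a same-strand cluster within 1000 bases. Confidence intervals of shares are exact at 95% and cover counting error only, since clusters of 1 transcript are not replicates. Those of medians are taken from ordered values and reach at least 95% only if clusters are independent. The functions were tested on simulated clusters. Alternatives were overlap in place of midpoint, a wider interval, both strands, a length filter, merging of clusters within 50 bases, and neighbour distances of 200 and 5000 bases. The gene, the lists and the measures were chosen with earlier results of these data known. All 19 clusters are printed, and up to 5 other windows by their non-Alu count. The groups AB1 and AB2 could not be compared, since the list does not separate them. Gene models and transcript sequences are from GENCODE 29 on GRCh38, and the microRNA from RefSeq. No hg19 sequence was used here.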

Additional observations from a re-analysis of the deposited data

How the results depend on the processing

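Of 32 alternative values, 25 stayed within 1.5 times the count or inside the 95% confidence interval of the reported value, and 7 fell outside. With 19 clusters these confidence intervals are wide, so staying inside them does not show that a value is stable. Among the 25, 18 equalled the reported value. All 18 came from counting any overlap with the interval, widening it by 10000 bases on each side or counting both strands. These settings could not change a result. No cluster lay on the minus strand of the interval, and none of either strand lay within 191.7 kb of it. With clusters shorter than the list median of 192 bases left out, 7 clusters remained, all 7 non-Alu, with a median length of 216 bases and a median gap of 12130 bases. The Alu share was then 0% and the share with a neighbour 0%, where 0 of 7 allows up to about 42.9%. This limit is the approximation of 3 divided by the number of clusters and not an exact interval. The filter itself removes short clusters, among them all 3 Alu clusters and all but 1 of the 5 clusters with a neighbour. Merging same-strand clusters within 50 bases left 18 clusters and lowered the share with a neighbour to 16.7%. A neighbour distance of 5000 bases gave 73.7% with a neighbour in place of 26.3%. No paired analysis was possible because the list does not separate AB1 from AB2, which also means that neither library could be left out. With no read numbers, places without a cluster cannot be judged.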
